A study of Mus musculus with 71 samples.

Results

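The comparison described here sets 6 wild-type mice of line Ki against 6 wild-type mice of line Ko, none of which carried an altered Foxp2 allele. The 12 arrays were chosen from the titles, as the Foxp2wt/wt striatum samples of both lines taken at 15, 18 or 21 days after birth, and they are 12 of the 35 juvenile arrays and of the 71 arrays in the series. Both lines go back to 1 embryonic stem cell clone of C57BL/6 mice, clone 5H11, so each line stands for a single clone. The Ki wild types were born to Foxp2wt/hum parents of a line whose neomycin cassette had been taken out with a C57BL/6J FLPe deleter. The Ko wild types were born to Foxp2wt/ko mice crossed with C57BL/6J, in a line whose Foxp2ko allele had been made with a B6 Cre deleter; both deleter transgenes had been bred out. The other 23 juveniles are carriers: 11 Foxp2hum/hum mice of line Ki, whose allele holds the human amino acid substitutions, and 12 Foxp2wt/ko mice of line Ko, 1 of them an array of 2 pooled mice from different litters. Striatum was taken with a biopsy punch, and total RNA was labelled for Affymetrix arrays.

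Foxp2 encodes a forkhead transcription factor of the striatal projection neurons, and mutations of its human counterpart disturb speech. A wild-type littermate is the usual reference for such an allele, and wild types of separate lines should carry the same Foxp2 sequence while they differ in parents, litter and breeding history. In the weeks after birth the mouse striatum is still forming synapses and myelin. The question put to these arrays was how far wild-type striata of the lines differ when Foxp2 does not. The deposited table names genes only by Ensembl-based identifiers, and 0 of them could be paired with a gene name here, so genes are given by identifier with no role, Foxp2 itself was not looked up, and the marker check of the dissected tissue could not be made.

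The 12 arrays were balanced: each line had 2 arrays at each day, 2 in each of 3 runs and 3 of each sex. The Ki minus Ko difference of a gene adjusted for day and run is therefore the difference of the plain means. Within a single day the runs were not balanced over the lines. A difference at 1 day that is adjusted for run can therefore depart from the plain means of that day. Litters were not balanced. The 12 mice came from 8 litters, 4 of each line, and at 18 and at 21 days each line was represented by 1 litter, so line and litter cannot be told apart at those days. P-values and intervals over the 12 arrays treat littermates as separate samples, except where litter is a block.

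The behaviour of single arrays is given first. The Ko 15-day female of run 1 stood apart on the first principal component, at 35.8 against 4.10 for the next array, and its median correlation with the other arrays was 0.955 against 0.975 to 0.987 for the rest. Its carrier littermate of the same run stood apart with it: over all 35 juveniles both lay at 28.6 and 34.9 on the first component, and the next array lay at 11.3. The Ki 15-day female of run 1 went against its sex label in part. Genes that separated the sexes in the embryo arrays were read in the juveniles: ENSMUSG00000072485_at had 4.49 on this array, against 9.93 to 10.8 in the 17 other females and 4.28 to 4.89 in the 17 males. ENSMUSG00000069045_at, which was higher in males, had 3.89 on the same array, against 3.74 to 4.03 in the other females and 8.16 to 8.87 in the males. Thus this array had the male level of the female gene and the female level of the male gene. Main results are given with and without both arrays. The medians of the 12 arrays ran from 6.91 to 6.98 (log2), and 0 pairs of arrays were identical.

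**Figure D1:**
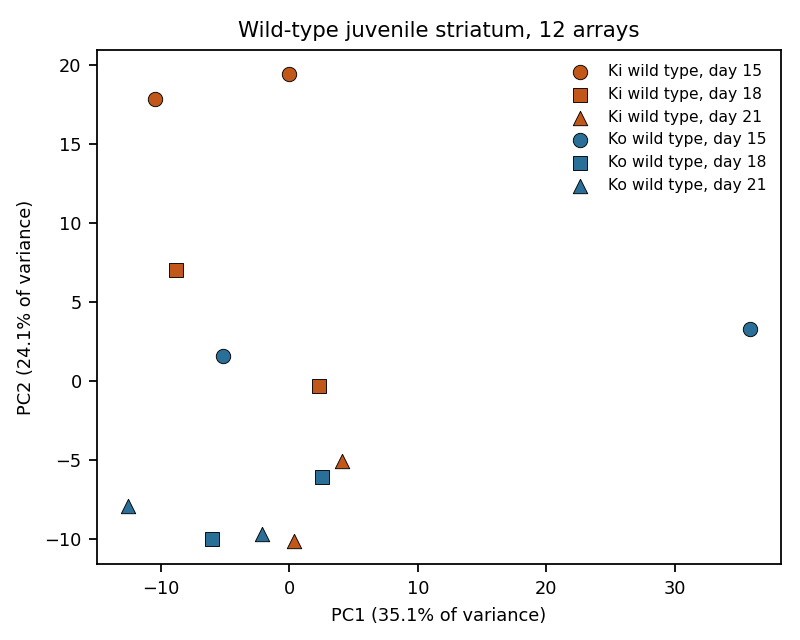
Each point is 1 of the 12 wild-type arrays on the first (horizontal) and second (vertical) principal component of the 9461 genes tested, in the units of the component scores; colour gives the line and shape the postnatal day. The Ko 15-day female of run 1 lies alone at 35.8 on the first component, and the 15-day Ki arrays lie highest on the second component.

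Whole profiles were compared by their distances. The distance between 2 arrays was taken as the median absolute log2 difference over the 9461 genes, between arrays of the same day. The 4 pairs of wild-type littermates lay 0.119 to 0.138 apart. The 12 pairs made of 1 Ki and 1 Ko wild type lay 0.105 to 0.303 apart, with a median of 0.144. At 18 days all 4 of these pairs, at 0.141 to 0.158, were farther apart than both littermate pairs of that day, at 0.119 and 0.138. None of these 4 pairs shared a run, while the littermates at 0.119 were both of run 3 and those at 0.138 were of different runs. Line, litter and run therefore cannot be told apart in the 18-day pairs. At 21 days the Ki and Ko pairs ran from 0.105 to 0.169 and the littermate pairs lay at 0.123 and 0.130. The 2 same-line pairs of different litters, both at 15 days, lay 0.139 apart in line Ki and 0.268 apart in line Ko, the second with the array that stood apart. Each wild type could also be set beside the carriers of its day, leaving out the pooled array. Without the Ki and Ko 15-day females and the Ko carrier littermate, the median distance was 0.127 over 20 same-litter pairs, 0.134 over 15 pairs of the same line and different litters, and 0.137 over 35 pairs of different lines. The single pairs ran from 0.105 to 0.188 in the second kind and from 0.103 to 0.186 in the third. Pairs share arrays and carriers differ in Foxp2 genotype, so no test was made.

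Line took a part of the spread between the arrays close to its share of the degrees of freedom. Of the summed squares over all genes, line took 10.6%, day 20.4%, run 24.4%, and 42.3% was left over. The line term has 1 of the 11 degrees of freedom, or 9.09%, while day and run have 18.2% each. For the median gene, line took 5.17% of that gene's sum of squares, against 14.47% for day and 24.7% for run. Run changed 2 genes in limma's moderated F test after Benjamini-Hochberg adjustment, 0.0211% of those tested, and 1882 genes, 19.9%, had an unadjusted p under 0.05.

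No gene differed between the wild types of the lines after adjustment over all genes. With limma, 0 of 9461 genes passed an adjusted p of 0.05, which is 0% of those tested, and the smallest adjusted p was 0.403. An unadjusted p under 0.05 was reached by 922 genes, 9.75% of those tested, of which 477 were higher and 445 lower in Ki. Without both 15-day females of run 1, again 0 genes passed and 1246 had an unadjusted p under 0.05. The differences were mostly small: the median absolute difference was 0.0694 on the log2 scale, 60 genes differed by more than 0.5, and the 95% interval of a gene had a median half-width of 0.172. For 96.1% of the genes the interval left out a difference of 1.5-fold in either direction, and for 1 gene it lay wholly beyond 1.5-fold. These intervals treat littermates as separate samples and may be too narrow. In 17 genes, 0.18% of those tested, the 6 Ki arrays did not overlap the 6 Ko arrays, with Ki above Ko in 12 and below it in 5. The number of arrays limits this precision, and single arrays moved the unadjusted count, which ran between 474 and 1370 when each was left out. It was 474 without the Ki 15-day male, 518 without the Ko 18-day female and 589 without the Ko 15-day male, and 1370 without the Ko 15-day female. Array quality weights gave 1337. A random block for litter, with an estimated correlation of 0.358 within litters, gave 585.

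Among the genes with the smallest p-values, ENSMUSG00000035757_at was the highest-ranked one with Ki above Ko. Its log2 values in Ki wild types were 6.94 and 6.76 at 15 days, 6.53 and 6.51 at 18 days, and 6.60 and 6.60 at 21 days. In Ko wild types they were 6.35 and 6.15, then 6.46 and 6.22, then 6.19 and 5.96. Every Ki array lay above every Ko array, most narrowly at 18 days. The difference was 0.44 ± 0.085 (SE, n = 6 each) in limma, with an adjusted p of 0.403. This was the 1 gene that passed when all 35 juveniles shared the estimate of spread, at an adjusted p of 0.00864 in limma. With litter as a further random block in that fit, at an estimated correlation of 0.228, the call was lost, as the gene stood 0.42 higher in Ki at an adjusted p of 0.0616, and 0 genes passed. In the carriers its level averaged 6.42 ± 0.19 in Ki (SD, n = 11) and 6.31 ± 0.24 in Ko (SD, n = 12), and their difference had an unadjusted limma p of 0.274.

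ENSMUSG00000020644_at had the second smallest p among genes with Ki above Ko. Its values in Ki wild types were 10.45 and 10.67 at 15 days, 9.97 and 10.17 at 18 days, and 10.12 and 9.98 at 21 days; in Ko wild types they were 10.21 and 9.99, then 10.04 and 9.66, then 9.70 and 9.79. Here the lines overlapped, since 3 Ko arrays lay within the Ki range, and at 18 days one Ko array lay between the Ki arrays. It was 0.33 ± 0.066 (SE, n = 6 each), with an adjusted p of 0.403 in limma. The gene also fell with age, by 0.48 on the log2 scale between 15 and 21 days (adjusted limma p 0.0253). In carriers the Ki minus Ko difference was 0.20 with an unadjusted p of 0.0269 and an adjusted p of 0.403 in limma.

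ENSMUSG00000043448_at led the genes with Ki below Ko. The Ki wild types were tight, at 6.60 and 6.66, then 6.76 and 6.70, then 6.88 and 6.90 in the order of the days. The Ko wild types were spread, at 7.33 and 6.86, then 8.02 and 7.40, then 6.83 and 7.61. The Ko 15-day male and the Ko 21-day female lay within the Ki range, and 5 of the 6 Ko arrays lay above both Ki arrays of their day. The difference was -0.59 ± 0.095 (SE, n = 6 each; adjusted limma p 0.403). Without the Ko 18-day male it was -0.69 and passed with an adjusted p of 0.0383 in limma. In carriers it was -0.17, with an unadjusted limma p of 0.32.

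ENSMUSG00000006782_at, the other gene named with Ki below Ko, averaged 11.26 ± 0.22 in Ki and 11.70 ± 0.25 in Ko wild types (SD, n = 6 each). The Ki arrays ran from 10.90 to 11.56 and the Ko arrays from 11.41 to 11.96, so the lines overlapped. The difference was -0.44 ± 0.070 (SE) in limma with an adjusted p of 0.403. In carriers it was -0.17, with an unadjusted limma p of 0.143. In all 4 genes the carrier difference had the direction of the wild-type one and was smaller. The choice of these genes on their wild-type p raises the wild-type difference, and 65.5% of all genes had the same sign in both.

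**Figure D2:**
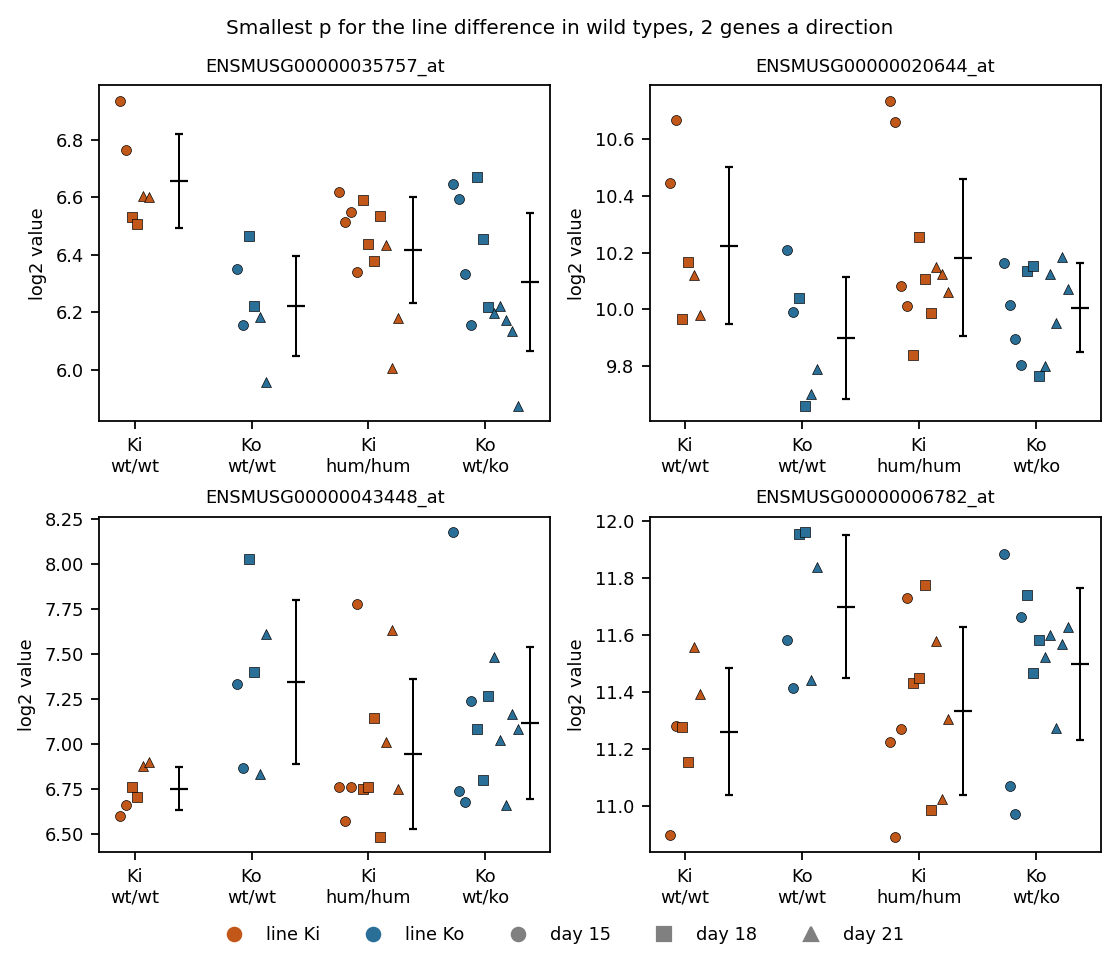
Log2 values (vertical) of the genes with the smallest p-values for the line difference, 2 in each direction, for 6 Ki and 6 Ko wild types and for 11 Ki and 12 Ko carriers (horizontal); each point is 1 array, its shape gives the day, and the bar beside each group shows the mean and SD. The wild-type groups of the upper left gene do not overlap, and the carrier groups overlap in all 4 genes.

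Most of the largest differences were not among those with the smallest p-values. There were 16 genes whose line difference passed 1 on the log2 scale, 14 with Ki above Ko and 2 below, and 12 of the 14 varied together. One of the 2 below was ENSMUSG00000072485_at, the female gene that the Ki 15-day female of run 1 had at the male level; its difference of -1.07 became -0.09 in limma without that array and with sex in the fit. Of the 16, ENSMUSG00000035681_at, named after its values were seen, had the smallest p, 0.000607 unadjusted and 0.403 adjusted in limma. Its difference was 1.30 ± 0.26 (SE) in wild types and 0.09 in carriers. The largest difference belonged to ENSMUSG00000037984_at, which was chosen for naming after its values were seen. Its values in Ki wild types were 8.53 and 7.87 at 15 days, 3.92 and 7.94 at 18 days, and 3.80 and 4.86 at 21 days. In Ko wild types they were 3.73 and 3.85, then 3.79 and 3.81, then 3.58 and 4.57. Thus 3 Ki arrays, both at 15 days and the male at 18 days, were far above the rest, while the Ki 18-day female from the same litter as that male had the level of the Ko arrays. The difference was 2.27 ± 0.78 (SE, n = 6 each), with an adjusted limma p of 0.454.

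Together with that gene, 47 genes had a Pearson correlation with it above 0.9 over the 12 arrays, itself included. All 47 averaged higher in Ki than in Ko, 40 with an unadjusted p under 0.05, beside the 9.75% of all genes that reached that p; they were chosen by their pattern over these same arrays, so the count is a description. They supplied 25 of the 51 genes that were more than 0.5 higher in Ki, and only 9 genes were more than 0.5 lower. The mean of the set was 8.83 and 8.79 in Ki wild types at 15 days, 7.48 and 8.60 at 18 days, and 7.40 and 7.65 at 21 days. In Ko wild types the mean lay between 7.34 and 7.63 on all 6 arrays. The same genes moved together in the carriers, which had no part in choosing them: 31 of the 47 had a correlation above 0.7 with the first gene over the 23 carriers, itself included, out of 51 such genes among all 9461. There the high arrays were in both lines. The set mean ran from 7.36 to 8.12 in Ki carriers, median 7.82, and from 7.38 to 8.50 in Ko carriers, median 7.65. The first gene differed by -0.17 between the carriers of the lines (unadjusted limma p 0.764). The set thus put single arrays apart in either line, and in the wild types all the high arrays were of line Ki. What tissue or cell these genes mark was not tested, because the identifiers could not be paired with marker genes.

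ENSMUSG00000061808_at, also above 1 and chosen after its values were seen, did not follow that set. In Ki wild types it had 4.73 and 4.57 at 15 days, 5.74 and 7.79 at 18 days, and 8.26 and 7.81 at 21 days; in Ko wild types it had 6.31 and 4.69, then 4.81 and 4.85, then 6.48 and 4.84. The difference was 1.15 ± 0.56 (SE, n = 6 each) with an adjusted limma p of 0.546. In the carriers single arrays were higher still, and it ran from 4.94 to 11.1 in Ki and from 4.66 to 13.5 in Ko.

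ENSMUSG00000028656_at had the largest difference with Ki below Ko, and was likewise chosen after its values were seen. All 6 Ki wild types lay between 7.26 and 7.77. Of the Ko wild types, 4 lay between 9.27 and 10.0, and the 18-day male and the 21-day male lay at 7.36 and 7.41. Each of these males had a high littermate, the 18-day female at 9.77 and the 21-day female at 10.0, so the split ran within litters. The wild-type difference was -1.48 ± 0.41 (SE; unadjusted p 0.00492, adjusted p 0.403 in limma). The carriers had the same form: all 11 Ki carriers lay between 6.84 and 7.81, while 8 of 12 Ko carriers lay between 9.28 and 10.0 and the other 4 between 7.097 and 7.61. Their difference was -1.46 with an unadjusted p of 0.000239 and an adjusted p of 0.122 in limma. No juvenile array lay between the low and the high values. Arrays of the third line, Ki2, also split. In its embryos 1 of 13 Foxp2hum/hum and 3 of 12 wild-type arrays lay between 8.28 and 8.35, and the other embryos lay between 5.02 and 6.30. Its adults ran from 6.37 to 10.2 in Foxp2hum/hum mice and from 6.66 to 8.86 in wild types. The levels used to count the arrays were set after their values were seen.

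**Figure D3:**
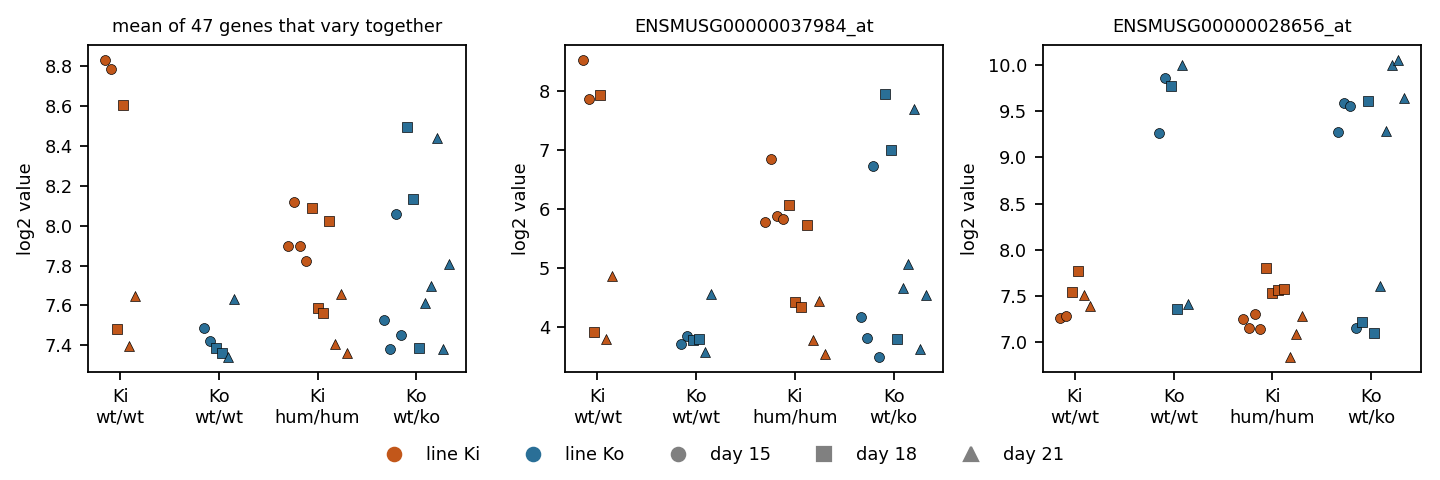
Log2 values (vertical) by group (horizontal; 6 Ki and 6 Ko wild types, 11 Ki and 12 Ko carriers) for the mean of the 47 genes that vary together, for the first gene of that set and for ENSMUSG00000028656_at; each point is 1 array and its shape gives the day. High arrays of the set occur in Ki wild types and in carriers of both lines, and the gene on the right takes a high level in 4 of 6 Ko wild types, 8 of 12 Ko carriers and no Ki array.

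The carriers give the same line contrast in arrays that the wild-type comparison did not use, although there line and Foxp2 genotype cannot be told apart and most of the mice were littermates of the wild types. Between Ki and Ko carriers 5 genes passed in limma, 0.0528% of those tested, 4 higher and 1 lower in Ki. The wild-type and carrier differences gave a Pearson correlation of 0.372 over the 9461 genes, though genes are no replicates of each other. Of all genes, 65.5% had the same sign in both. Of the 922 genes with an unadjusted p under 0.05 in wild types, 715, or 77.5%, had the same sign in carriers. Of these 922, 155 also had an unadjusted p under 0.05 in carriers in the same direction, against 6 in the opposite one; over all 9461 genes these counts were 835 and 176. Among the 100 genes with the smallest wild-type p, 80 had the same sign. Over all genes the median absolute difference was 0.069 in wild types, and the median carrier difference in the wild-type direction was 0.032. For the 922 genes these values were 0.206 and 0.061, where the first is raised by the choice of the genes on their wild-type p.

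The likeness was seen against carriers of shared litters. Against the 17 carriers whose litter also gave a wild-type array (8 Ki, 9 Ko), the correlation across genes was 0.477, and 68.1% of genes had the same sign. Against the 6 carriers with no such litter (3 Ki, 3 Ko, among them the pooled array, which holds 1 mouse of a shared litter) it was -0.093 when adjusted for day, with 50.9% of genes of the same sign, and -0.027 as plain means. Without both 15-day females of run 1 the wild-type differences had a correlation of 0.257 with all carriers and 0.311 with the carriers of shared litters. The 6 arrays give a noisier difference than the 17. They held a 15-day array of line Ko and none of line Ki, so they carry no line contrast at 15 days. The plain means also set the days unevenly over the lines. The part of noise, of the days and of litter in the lower value was not tested.

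**Figure D4:**
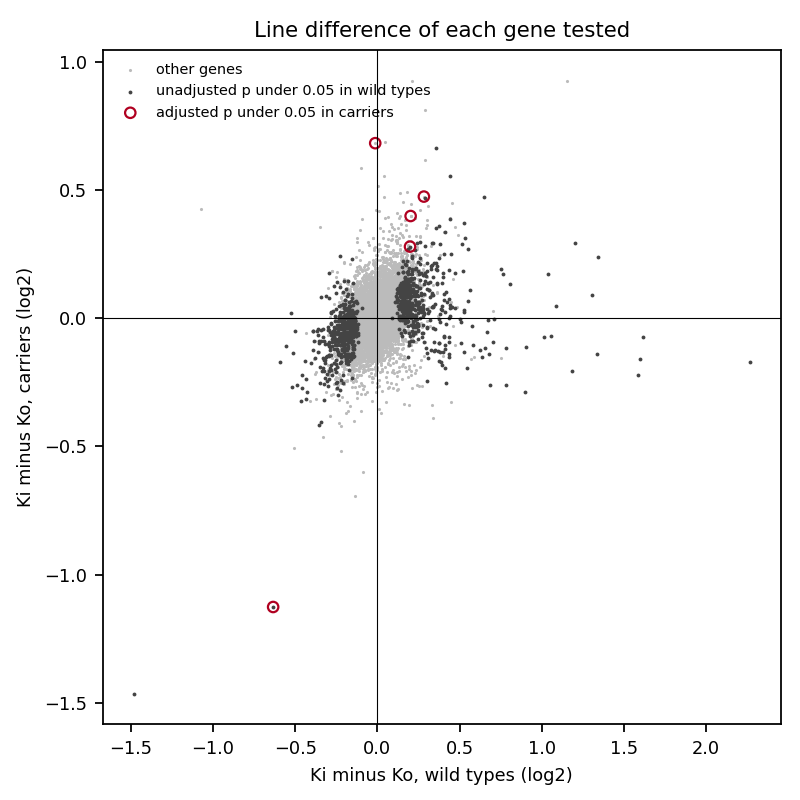
Each point is 1 of 9461 genes, with its Ki minus Ko difference in wild types (horizontal, log2) and in carriers (vertical, log2); dark points have an unadjusted p under 0.05 in wild types and ringed points an adjusted p under 0.05 in carriers. The cloud leans upward to the right, at a correlation of 0.372, and the genes farthest to the right have carrier differences near 0.

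The carrier genes that passed did not all behave alike in wild types. ENSMUSG00000029563_at, the gene with the smallest carrier p, averaged 9.80 ± 0.15 in Ki carriers (SD, n = 11) and 9.12 ± 0.23 in Ko carriers (SD, n = 12), a difference of 0.68 with an adjusted limma p of 0.000308. In wild types it averaged 9.70 ± 0.12 in Ki and 9.71 ± 0.22 in Ko (SD, n = 6 each), a difference of -0.01 with a 95% interval of -0.18 to 0.15. The difference between these line differences, wild types minus carriers, was -0.69 in the fit over 35 arrays and passed with an adjusted limma p of 0.0348. ENSMUSG00000021720_at was 0.28 higher in Ki among carriers (adjusted limma p 0.0304) and 0.20 higher in Ki among wild types, with an unadjusted p of 0.0137 and an adjusted p of 0.441. Its carrier call was lost with litter as a block, at an adjusted limma p of 0.0848.

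ENSMUSG00000073643_at, the carrier gene lower in Ki, differed by -1.13 in carriers (adjusted limma p 0.00655). Its Ki carriers ran from 6.54 to 8.03 and its Ko carriers from 7.82 to 8.87. Ki wild types had 7.22 and 6.75 at 15 days, 8.15 and 7.99 at 18 days, and 8.51 and 8.65 at 21 days. Ko wild types had 8.50 and 8.12, then 8.79 and 8.85, then 8.24 and 8.58. The low Ki level was thus present in wild types at 15 days. Adjusted for run, the difference there was -1.46 with an adjusted limma p of 0.0208. At 21 days the difference adjusted for run was -0.06, although the plain mean of Ki was above that of Ko. Over the 3 days together it was -0.63 with an adjusted p of 0.403, and its dependence on the day had an adjusted p of 0.611 in limma.

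Which day had the most genes past an unadjusted threshold for the line difference changed with the fit. Taken from 1 fit with a line difference for each day, 1853 genes, 19.6%, had an unadjusted p under 0.05 at 15 days, 575, 6.08%, at 18 days and 188, 1.99%, at 21 days; after adjustment 3, 0 and 0 passed in limma. With each day fitted alone, and so without run, the numbers turned round: 401 genes at 15 days, 1069 at 18 days and 622 at 21 days had an unadjusted p under 0.05, and 9, 1 and 0 passed. At 18 days both Ki arrays were of run 3 and neither Ko array was. In the 1 fit with run, the median absolute differences were 0.182, 0.149 and 0.090 on the log2 scale at the 3 days. At 15 days each line had mice of 2 litters, both arrays described above are 15-day arrays, and at the later days each line had 1 litter. The test of the dependence itself called 2 genes in limma's moderated F test, 0.0211% of those tested, and 704 genes, 7.44%, had an unadjusted p under 0.05.

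In both of these genes the wild-type arrays of the lines changed order at 21 days, where each line was represented by 1 litter. ENSMUSG00000059173_at had 8.38 and 8.24 in Ki wild types at 15 days, 8.04 and 8.23 at 18 days, and 7.01 and 6.55 at 21 days. In Ko wild types it had 6.58 and 6.63, then 6.29 and 6.22, then 7.69 and 7.66. The dependence had an adjusted p of 0.0321 in limma. Adjusted for run, Ki was 1.70 and 1.84 above Ko at 15 and 18 days and 0.85 below it at 21 days on the log2 scale. Taken day by day, these differences had adjusted limma p-values of 0.0208, 0.161 and 0.9998. At 21 days the unadjusted limma p was 0.00089, so the reversal itself did not pass after adjustment. ENSMUSG00000019890_at had 10.04 and 10.05, then 9.59 and 9.66, then 8.80 and 9.05 in Ki, and 8.37 and 8.81, then 8.81 and 8.81, then 9.40 and 9.11 in Ko, with an adjusted limma p of 0.0429. Adjusted for run, Ki was 1.65 and 0.45 above Ko at 15 and 18 days. At 21 days both Ki arrays lay below both Ko arrays. The difference adjusted for run was -0.16 there, with a 95% interval of -0.45 to 0.13, so the fit did not establish a reversal. Of the 6 pairs of arrays of the same line and day, 4 were littermates.

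Neither call was stable. With litter as a random block 0 genes passed, 3 had an unadjusted p under 0.05, and the adjusted p of both genes was 1.00. Leaving out 1 array at a time gave 0 calls without the Ki 15-day female, the Ki 15-day male, either Ki 18-day array, the Ki 21-day male or either Ko 18-day array, and 1 without the Ki 21-day female or the Ko 15-day female. It gave 383 calls without the Ko 15-day male, 702 without the Ko 21-day female and 432 without the Ko 21-day male. Without both 15-day females of run 1 there was 1 call, and it was neither of these genes. In carriers, the dependence on the day had an unadjusted limma p of 0.49 for ENSMUSG00000059173_at and 0.0586 for ENSMUSG00000019890_at. There ENSMUSG00000059173_at ran from 6.06 to 7.83 in Ki and from 6.03 to 8.43 in Ko, with the lines overlapping.

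**Figure D5:**
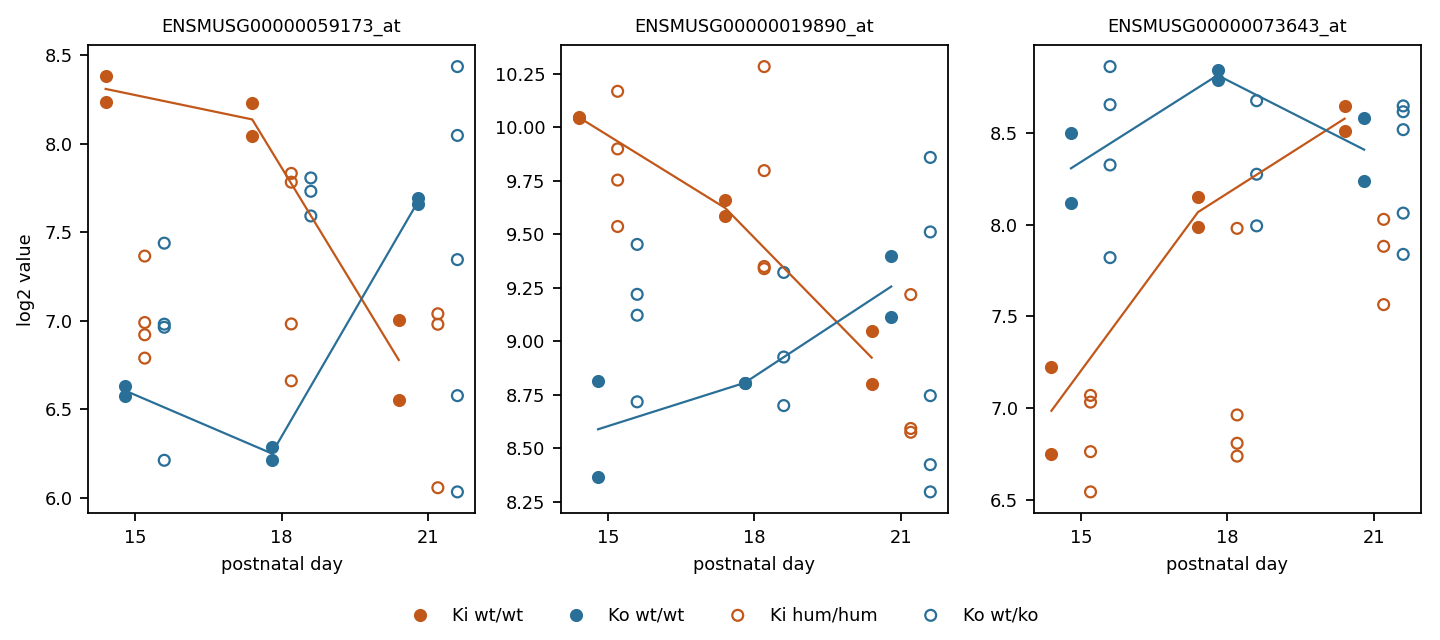
Log2 values (vertical) at 15, 18 and 21 days (horizontal) of both genes whose line difference depended on the day and of the carrier gene lower in Ki; filled points are wild types, with lines through the mean of each day, open points are carriers, and colour gives the line. Ki wild types lie above Ko at 15 and 18 days in the left panel and below at 21 days, while open points of both lines overlap there.

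More genes passed for day than for line in the same 12 arrays. Each wild-type litter was sampled at 1 day only, so age and litter cannot be told apart in these counts. Between 21 and 15 days 202 genes passed in limma, 2.14% of those tested, 105 higher and 97 lower at 21 days, and 1769 genes, 18.7%, had an unadjusted p under 0.05. ENSMUSG00000021278_at had 8.50, 8.12, 8.46 and 7.89 at 15 days, 7.43, 7.35, 7.48 and 7.36 at 18 days, and 6.79, 7.03, 6.65 and 6.77 at 21 days, with the Ki arrays before the Ko arrays at each day. The days did not overlap, and it fell by 1.38 on the log2 scale (adjusted limma p 0.000441). ENSMUSG00000036578_at fell by 0.98, at the same adjusted p. ENSMUSG00000033904_at rose by 0.76 ± 0.072 (SE; adjusted limma p 0.0024) and ENSMUSG00000032373_at by 1.42 ± 0.16 (SE; adjusted limma p 0.00549). All 4 moved the same way in both lines, and their line differences had unadjusted limma p-values between 0.0265 and 0.216.

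This count rested on few arrays. It was 4 without the Ki 15-day male, 4 without the Ki 21-day male, 11 without the Ko 21-day female, 49 without the Ki 21-day female, 67 without the Ko 18-day female, 72 without the Ko 18-day male, 74 without the Ki 15-day female, 89 without the Ki 18-day male and 123 without the Ko 21-day male. It was 650 without the Ko 15-day female and 128 without both 15-day females of run 1. A random block for litter left 35 calls.

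Genes that changed with age in the carriers were then read in the wild types, where they had not been chosen. In carriers 517 genes rose and 1089 fell between 15 and 21 days at an adjusted limma p under 0.05. In wild types 82 of the 517 passed as higher and 88 of the 1089 as lower at 21 days, and the median difference between these days was 0.25 for the first list and -0.21 for the second, beside -0.004 over all genes on the log2 scale. The mean of the rising minus the mean of the falling genes ordered the wild types by age. It was -0.45 and -0.25 in Ki and -0.39 and -0.15 in Ko at 15 days, -0.10 and 0.07 in Ki and 0.13 and 0.05 in Ko at 18 days, and 0.30 and 0.15 in Ki and 0.30 and 0.34 in Ko at 21 days. At each day the Ki mean was the lower one, by less than the gap between the 2 arrays of a line in at least 1 line.

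The line difference was not even over these lists. Of the 517 rising genes, 9 were higher and 56 lower in Ki at an unadjusted p under 0.05, and of the 1089 falling genes 117 were higher and 18 lower, beside 477 and 445 of all genes. The median Ki minus Ko difference was -0.048 for the rising genes and 0.029 for the falling ones, beside -0.004 over all genes. By day, the median for the rising genes was -0.087 at 15 days, -0.060 at 18 days and 0.0095 at 21 days. The median for the falling genes was -0.038 at 15 days, 0.14 at 18 days and 0.006 at 21 days, beside -0.028, 0.011 and 0.004 over all genes. Without both 15-day females of run 1 the counts were 18 higher and 61 lower among the rising genes and 170 higher and 23 lower among the falling genes. The 2 lists are not independent of litter, since most carriers were littermates of the wild types.

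Sex could be compared in the same arrays, and the arrays described at the start bore on the result. With all 12 arrays 0 genes passed in limma among those tested, where the smallest adjusted p was 0.593, and 628 had an unadjusted p under 0.05. The filter on dim genes also bore on this 0. ENSMUSG00000069045_at, which separated the labelled sexes on these 12 arrays, was not among the genes tested, and 4 genes passed with no filter. Without the Ki 15-day female of run 1, 132 genes passed, and without the Ko 15-day female 0 did. Without both of them the number was 2. Within the 4 litters that gave a wild-type male and female, 1 gene passed.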

How the data were processed

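The authors deposited 1 table of log2 values per gene for 71 Affymetrix arrays; how these log2 values were summarised, background-corrected and normalized is not given in the sources used here. The values were used as deposited. All 15768 rows carry an Ensembl-based identifier. The dimmest 40% by mean over the 71 arrays were left out, which kept 9461. Sample groups, day, sex, run and litter come from the titles. limma 3.58.1 in R 4.3.3 was fitted to the 12 wild-type arrays with line, day and run (eBayes with an intensity trend), and to the 23 carriers likewise. P-values were adjusted over all genes tested by Benjamini-Hochberg, with a threshold of 0.05 and intervals at 95%. Alternatives changed the filter, the normalization, the covariates, the litter block, the arrays or the runs; leaving out both 15-day females, each array in turn for day and its interaction, and the splits by litter were chosen after the data were seen. Named genes had the smallest p in each direction, at most 2 a direction; others are said to be chosen after their values were seen. The members and gene lists were chosen with earlier results of these data known. The gene lists drawn up for cell types and pathways could not be applied, because no identifier was paired with a name. The fits were tested on simulated data. Arrays carry no count of depth; their number limits the precision.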

Additional observations from a re-analysis of the deposited data

Results flagged for a closer look

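The Ko 15-day female of run 1 lay at 35.8 on the first principal component, while the next Ko wild type lay at 2.52, and its median correlation with the other wild types was 0.955 while the next lowest of line Ko was 0.984. Both gaps were large beside the range of the 6 Ko arrays. In all, 34 groups of 6 arrays were looked at in this way, and chance sets apart about 1 in 20 groups. ENSMUSG00000059173_at and ENSMUSG00000019890_at had line differences that changed with the postnatal day in limma, with adjusted p-values of 0.0321 and 0.0429.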

How the results depend on the processing

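The line difference in wild types gave 0 calls under most alternatives. It gave 1 call in the fit over 35 juveniles with sex (0 once litter was a random block there), 1 in run 3 alone, 9 at 15 days alone, 1 at 18 days alone, 1 in females alone, and 0 to 1 when each array was left out in turn. The 4 genes named for it kept their direction under every alternative run, with adjusted limma p-values of up to 0.9998. The alternatives reuse the arrays on which these genes were chosen, so the kept direction is a description. The carrier count of 5 became 3 with no filter, 3 with quantile normalization, 1 with the dimmest 60% left out, 2 with median centring, 3 with sex, 2 with litter as a random block, 16 at an adjusted p of 0.10, 3 without the pooled array, and 1, 0 and 0 in runs 1, 2 and 3 alone. The day count of 202 became 35 with litter as a random block, 529 at an adjusted p of 0.10, 0 in line Ko alone, 4 to 650 when each array was left out, and 128 without both 15-day females of run 1. The 2 calls for the dependence on day became 1 with no filter, 1 with quantile normalization, 0 with litter as a random block, 1 without both 15-day females of run 1, and 0 to 702 when each array was left out. The 2 run calls became 0 with no filter, 4 with quantile normalization, and 0 to 9 when either 15-day female of run 1 was left out. The 0 sex calls became 4 with no filter, 0 to 132 when either of these arrays was left out, 2 without both, 28 with no filter and without the Ki array, 1 within the 4 litters that gave both sexes, and 5 within them with no filter. The cause of these changes was not tested. No paired analysis was possible because the titles of the 12 arrays carry no replicate number and each litter belongs to 1 line; the pairs by litter above are for sex.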
